A study of Mus musculus with 18 samples.

Results

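The 9 genes followed here carry, relay or restrain the signal of activating Fc receptors and were read in bulk RNA-seq libraries of macrophages sorted from mouse synovium, the membrane that lines a joint. The genes were taken by symbol: the Src-family kinases *Lyn* and *Fgr*, the kinases *Syk* and *Btk*, the effectors *Plcg2* and *Vav1*, the adaptor *Tyrobp*, and the phosphatases *Inpp5d* and *Ptpn6*. They are 9 of the 24421 symbols counted, and all 9 passed the filter on low counts that left 10550 genes for testing. The mice were wild-type C57BL/6 animals (C57BL/6J in the study's methods) of both sexes, 8 to 20 weeks old. Control mice received no treatment, and IC mice received immune complexes of ovalbumin with rabbit anti-ovalbumin antibody by the intravenous route 8 h before the synovium was collected. Macrophages were sorted into LYVE1+CX3CR1+, MHCII+CD11c- and MHCII+CD11c+ subsets, and each of the 6 groups of subset and treatment had 3 libraries. Each library pooled the cells of 6 legs from 3 mice, so that single animals cannot be told apart.

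Crosslinked activating Fc receptors are phosphorylated by Src-family kinases on immunoreceptor tyrosine-based activation motifs (ITAMs), which lie in the adaptor FcRγ. SYK docks on the phosphorylated motif and, with BTK, activates PLCγ2 and the exchange factor VAV1, and calcium release, cytoskeletal change and phagocytosis follow. Inhibitory receptors such as FcγRIIB carry inhibitory motifs that recruit the lipid phosphatase SHIP-1 (encoded by *Inpp5d*) or the tyrosine phosphatase SHP-1 (encoded by *Ptpn6*). RNA levels say nothing of the phosphorylation through which these proteins act.

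The sequences just upstream of 4 transcription starts are shown because *Fgr* was the gene among the 9 that differed most between groups, and because *Vav1*, *Inpp5d* and *Syk* were the others with differences that recurred before and after IC. The core GAGGAA, bound by PU.1, the lineage factor of macrophages, was the only motif searched, on both strands. Capitals mark each match. The sequences are the 120 bases upstream of each start in RefSeq (GRCm38.p6), read 5′ to 3′ on the gene's strand, at chr4:132973975-132974094 (+) for *Fgr*, chr17:57278980-57279099 (+) for *Vav1*, chr1:87620192-87620311 (+) for *Inpp5d* and chr13:52596762-52596881 (+) for the second start of *Syk*.
Fgr: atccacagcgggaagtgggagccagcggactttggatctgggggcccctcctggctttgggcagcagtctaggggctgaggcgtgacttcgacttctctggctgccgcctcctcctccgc
Vav1: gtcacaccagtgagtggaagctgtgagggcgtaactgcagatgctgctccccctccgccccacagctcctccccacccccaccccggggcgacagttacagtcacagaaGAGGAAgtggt
Inpp5d: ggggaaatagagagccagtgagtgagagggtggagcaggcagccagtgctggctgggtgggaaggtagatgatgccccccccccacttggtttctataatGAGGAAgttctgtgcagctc
Syk, second start: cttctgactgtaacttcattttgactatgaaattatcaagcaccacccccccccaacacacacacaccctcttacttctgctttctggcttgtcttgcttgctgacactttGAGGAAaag
The core lay 11 bases upstream of the *Vav1* start, 20 bases upstream of the *Inpp5d* start and 9 bases upstream of the second *Syk* start, each time on the strand of the gene. No match was found in the 250 bases upstream of *Fgr*, of the first start of *Syk*, or of *Btk*, *Plcg2* and *Ptpn6*. Of the starts of *Syk* only the second, which held a match, is shown. *Lyn* and *Tyrobp* had no entry among these promoters and were not searched. Of 32851 RefSeq promoters of the same length, 23.3% held the core on either strand. A match describes the letters only.

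Library totals ran from 245903 to 2172358 counts (median 1526180), and the lowest belonged to replicate 2 of the MHCII+CD11c- IC group. Rn45s, a ribosomal RNA precursor, took 7.92% to 16.3% of counts. All 6 macrophage markers were detected, with a summed level of 3601 to 8949 CPM, the unit of counts scaled to a fixed library total with the trimmed mean of M-values (TMM-scaled CPM). Without treatment the sum was 7710 to 8345 CPM in LYVE1+CX3CR1+, 5589 to 6187 CPM in MHCII+CD11c- and 3601 to 3973 CPM in MHCII+CD11c+. The part of this order in the differences between subsets was not tested. Of the markers used for sorting, *Itgax*, the CD11c gene, was called higher after IC in the MHCII+CD11c- subset (log2 fold change 2.75, edgeR adjusted p = 0.0261), whereas *Lyve1* was called higher after IC in the MHCII+CD11c+ subset (1.54, adjusted p = 0.00881), as was *Cx3cr1* (0.85, adjusted p = 0.0471). In the MHCII+CD11c- subset *H2-Aa* (-0.84) and *H2-Ab1* (-0.68), which encode MHC class II chains, were called lower after IC. The labels of these subsets therefore name gates whose own genes moved with treatment. Replicate 2 of MHCII+CD11c- IC was also the lowest of its group for 8 of the 9 genes, all but *Tyrobp*. It had the lowest macrophage marker sum of the group (4405 CPM) and the highest monocyte (1288 CPM), B cell (373 CPM) and mast cell (478 CPM) marker sums of all 18 libraries. In bulk RNA, fewer cells of a type and less RNA per cell cannot be told apart.

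All 9 genes were detected in every library, from 17 counts (*Btk* in the shallowest library, where counting error alone gives a coefficient of variation of 24.3%) to 1275 counts (*Inpp5d*). Per kilobase of exon, the adaptor *Tyrobp* stood highest, at group means of 369.8 ± 11.1 to 425 ± 8.28 CPM per kb (± SD, n = 3 libraries throughout). *Lyn* followed at group means from 101 to 137 CPM per kb, except after IC in MHCII+CD11c- (*Lyn* 108 ± 27.1, *Ptpn6* 116 ± 28.0) and MHCII+CD11c+ (*Lyn* 101 ± 7.50, *Ptpn6* 103 ± 6.11), where *Ptpn6* had the higher mean within the spread of the libraries. *Btk* stood lowest beside *Fgr*, at 17.2 to 23.3 CPM per kb. *Fgr* covered the widest span, from 7.62 to 58.4 CPM per kb. On the TMM-scaled CPM scale the highest group mean exceeded the lowest 7.67-fold for *Fgr*, against 1.98-fold for *Inpp5d*, 1.65-fold for *Syk* and 1.15-fold for *Tyrobp*. The levels of the 9 genes therefore fell into 1 gene that moved several-fold and 8 that stayed within a factor of 1.98. TMM-scaled CPM, which compares a gene between libraries, is the scale of all levels that follow.

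**Figure D1:**
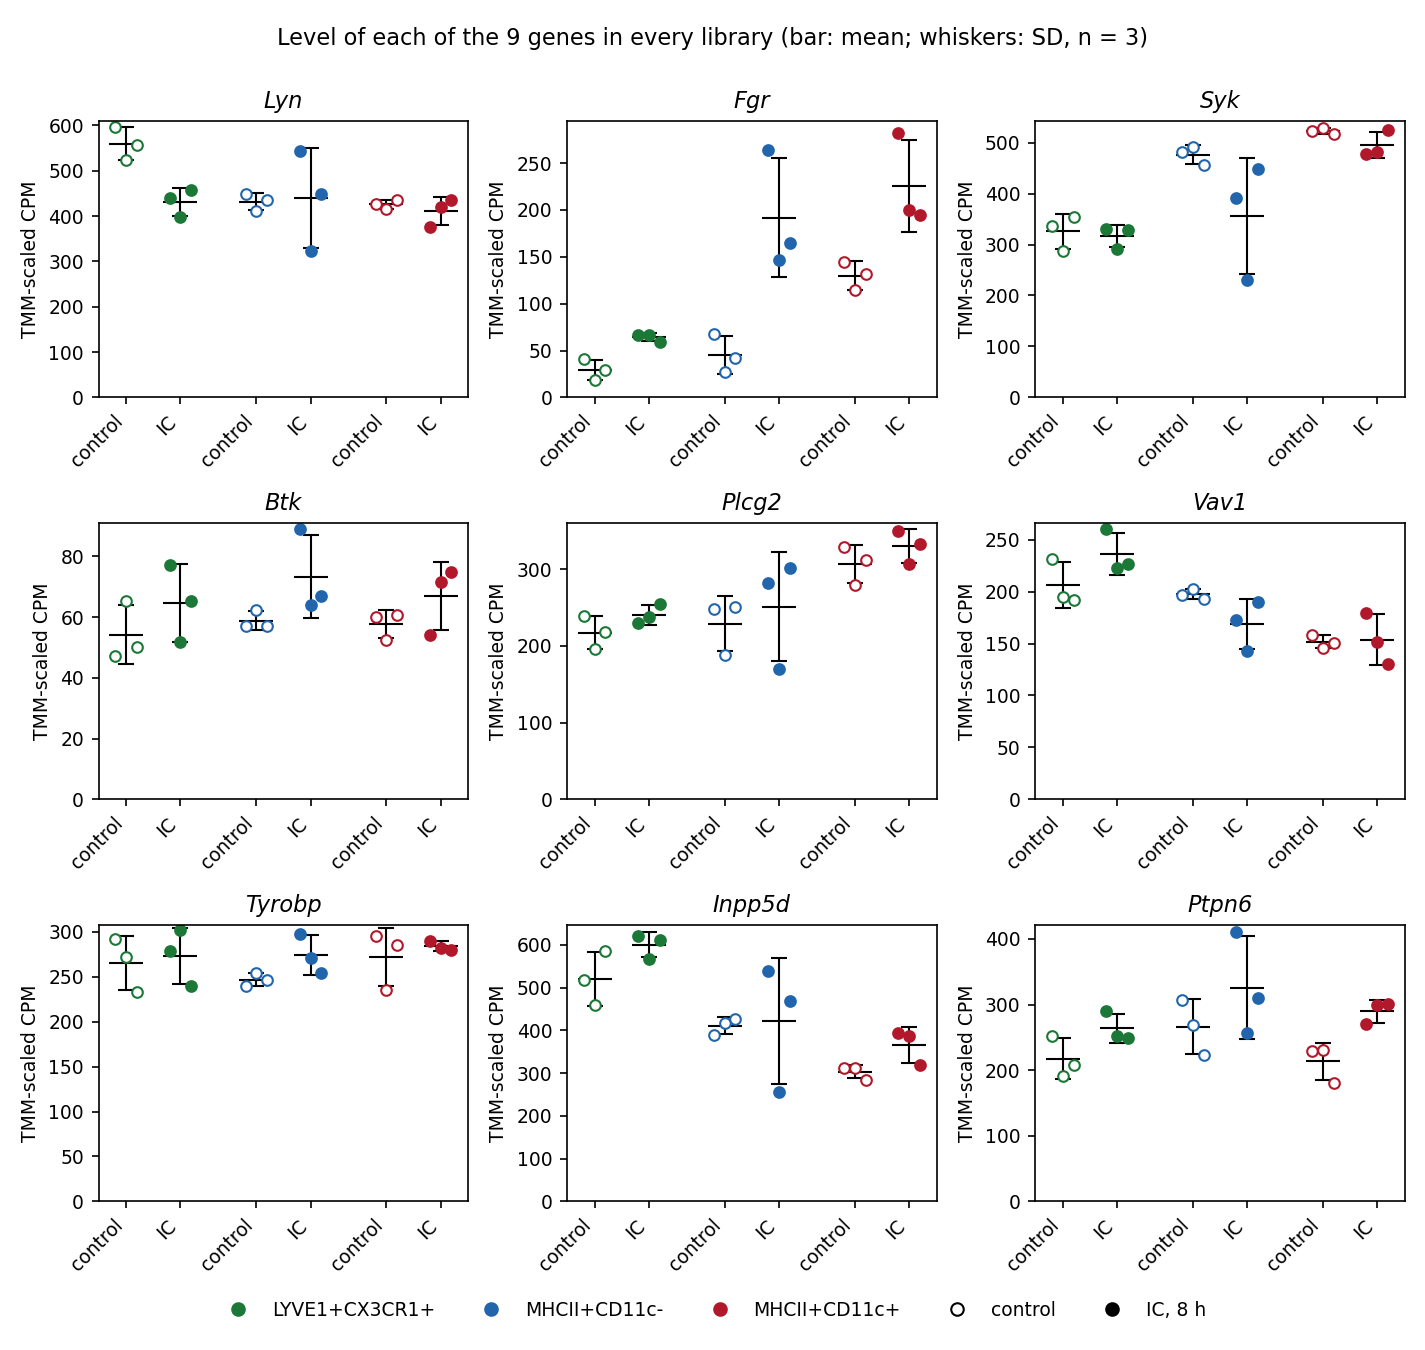
Level of each of the 9 genes (TMM-scaled CPM, linear scale on the vertical axis) in the 18 libraries, by subset and treatment. Points are libraries and bars are group means with SD (n = 3). *Fgr* is higher in MHCII+CD11c+ than in LYVE1+CX3CR1+ libraries and higher after IC in each subset, while the 6 group means of each other gene stay within 1.98-fold.

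*Lyn* encodes the Src-family kinase that both starts ITAM signalling and phosphorylates inhibitory motifs. In LYVE1+CX3CR1+ macrophages it stood at 597, 525 and 556 CPM in control libraries and 439, 397 and 457 after IC. Every IC library lay below every control library of this subset, yet the fitted difference of -0.38 on the log2 scale (SE 0.15) did not pass the quasi-likelihood test of edgeR, adjusted by the Benjamini-Hochberg method (adjusted p = 0.434). The MHCII+CD11c- subset held 449, 412 and 435 CPM in controls and 544, 324 and 449.6 after IC. The MHCII+CD11c+ subset held 426, 416 and 435 CPM in controls and 376, 421 and 435 after IC. In both MHCII+ subsets the treatments overlapped. Untreated LYVE1+CX3CR1+ libraries stood above all libraries of both untreated MHCII+ subsets, by 0.37 against MHCII+CD11c- (adjusted p = 0.134) and 0.39 against MHCII+CD11c+ (adjusted p = 0.0688), and neither difference passed the threshold of 0.05. Without replicate 2 of MHCII+CD11c- IC both passed (adjusted p = 0.0311 and 0.0128), and the second also passed without replicate 1 of that group (0.0444).

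*Fgr* encodes the other Src-family kinase of the set, a kinase of myeloid cells that acts alongside LYN at Fc receptors. Untreated LYVE1+CX3CR1+ libraries held 40.4, 18.8 and 29.1 CPM of *Fgr*. Untreated MHCII+CD11c- libraries held 67.4, 26.9 and 41.9 CPM and overlapped them. Untreated MHCII+CD11c+ libraries held 144, 114 and 131 CPM, above every library of the other untreated subsets. LYVE1+CX3CR1+ macrophages thus had 4.43-fold less *Fgr* than MHCII+CD11c+ macrophages (log2 fold change -2.15, SE 0.28, adjusted p = 1.7e-06). Untreated MHCII+CD11c+ exceeded MHCII+CD11c- macrophages 2.86-fold (1.52, SE 0.28, adjusted p = 0.00195). Between LYVE1+CX3CR1+ and MHCII+CD11c- the difference was -0.63 (95% interval -1.30 to 0.04) and did not pass (adjusted p = 0.215).

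After IC, *Fgr* reached 66.5, 66.9 and 59.1 CPM in LYVE1+CX3CR1+ libraries. It reached 264, 147 and 164 CPM in MHCII+CD11c- libraries. It reached 282, 199.8 and 195 CPM in MHCII+CD11c+ libraries. In each subset all 3 IC libraries exceeded all 3 control libraries. The rise passed the test in MHCII+CD11c- macrophages, at 4.20-fold (log2 fold change 2.07, SE 0.29, 95% interval 1.43 to 2.71, adjusted p = 0.00104). The estimate was 1.13 in LYVE1+CX3CR1+ (95% interval 0.51 to 1.74, adjusted p = 0.0871) and 0.78 in MHCII+CD11c+ (95% interval 0.23 to 1.33, adjusted p = 0.199), so that neither passed, although both intervals lay above 0. In LYVE1+CX3CR1+ the call was gained on leaving out replicate 1 of MHCII+CD11c- control (adjusted p = 0.0454) or replicate 2 of MHCII+CD11c- IC (0.0376), both of another subset. The size of the response itself was not shown to differ between subsets: MHCII+CD11c+ against MHCII+CD11c- gave -1.29 (SE 0.39, adjusted p = 0.684), and LYVE1+CX3CR1+ against MHCII+CD11c- gave -0.94 (adjusted p = 0.751). After IC, LYVE1+CX3CR1+ macrophages remained lowest, by -1.58 against MHCII+CD11c- (adjusted p = 0.00028) and -1.80 against MHCII+CD11c+ (adjusted p = 1.08e-05).

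Ordered by mean, *Fgr* ran from untreated LYVE1+CX3CR1+ (29.4 ± 10.8 CPM) through untreated MHCII+CD11c- (45.4 ± 20.5), LYVE1+CX3CR1+ after IC (64.2 ± 4.44), untreated MHCII+CD11c+ (130.0 ± 15.1) and MHCII+CD11c- after IC (192 ± 63.3) to MHCII+CD11c+ after IC (226 ± 49.1). The first 3 groups overlapped from one neighbour to the next, as did the last pair. No library of LYVE1+CX3CR1+ after IC reached the lowest untreated MHCII+CD11c+ library. Both MHCII+ groups after IC stood above the other 4 groups.

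Neutrophils also express *Fgr*, so the 8 of 9 neutrophil markers that were counted were summed in each library. The sum was 13.2 to 17.2 CPM in untreated LYVE1+CX3CR1+ libraries, where *S100a8*, *Ngp* and *Camp* were at 0, and 19.2, 145 and 25.9 CPM after IC. In MHCII+CD11c- libraries it was 1479, 611 and 625 CPM in controls and 1399, 1401 and 3406 CPM after IC. In MHCII+CD11c+ libraries it was 511, 20.4 and 166 CPM in controls and 904, 1339 and 2035 CPM after IC. The sum was thus higher in every IC than in every control library of LYVE1+CX3CR1+ and of MHCII+CD11c+ and overlapped in MHCII+CD11c-, where its mean was 905 CPM in controls and 2068 CPM after IC. In MHCII+CD11c- *S100a8* (1.68), *S100a9* (1.63) and *Cxcr2* (1.79 on the log2 scale) stood above the controls in every IC library, with adjusted p of 0.193, 0.276 and 0.160. *Csf3r* of the same list overlapped there, with 40.9 to 44.0 CPM in controls and 37.7 to 95.1 CPM after IC. In MHCII+CD11c+ *S100a8*, *Csf3r* and *Mmp8* were also called higher after IC, with log2 fold changes of 1.52 to 3.37. The part of neutrophils in the *Fgr* values was not tested in any subset. Within untreated MHCII+CD11c- libraries *Fgr* (26.9, 41.9 and 67.4 CPM) stood in the order of the sums (611, 625 and 1479 CPM), and within untreated MHCII+CD11c+ libraries *Fgr* (114, 131 and 144 CPM) did so too (20.4, 166 and 511 CPM). After IC, the MHCII+CD11c- libraries with sums of 1399, 1401 and 3406 CPM had *Fgr* at 264, 147 and 164 CPM, and the MHCII+CD11c+ libraries with sums of 904, 1339 and 2035 CPM had 282, 199.8 and 195 CPM. In LYVE1+CX3CR1+ after IC, sums of 19.2, 25.9 and 145 CPM went with *Fgr* at 66.5, 59.1 and 66.9 CPM. Monocyte marker sums were 21.4 to 46.4 CPM in all 6 LYVE1+CX3CR1+ libraries and 610 to 1288 CPM in the 12 MHCII+ libraries. In MHCII+CD11c- they were 610 to 798 CPM in controls and 667 to 1288 CPM after IC. In MHCII+CD11c+ they were 794 to 845 CPM in controls and 684 to 801 CPM after IC, with a lower mean after IC. *Plac8* of that list was called higher after IC in MHCII+CD11c- (2.42) and MHCII+CD11c+ (2.48). B cell marker sums were 0 to 4.74 CPM in the LYVE1+CX3CR1+ libraries and 70.9 to 373 CPM in the MHCII+ libraries. Mast cell marker sums reached 478 CPM and overlapped between treatments in each subset. The part of these cells in the differences between subsets was not tested.

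**Figure D2:**
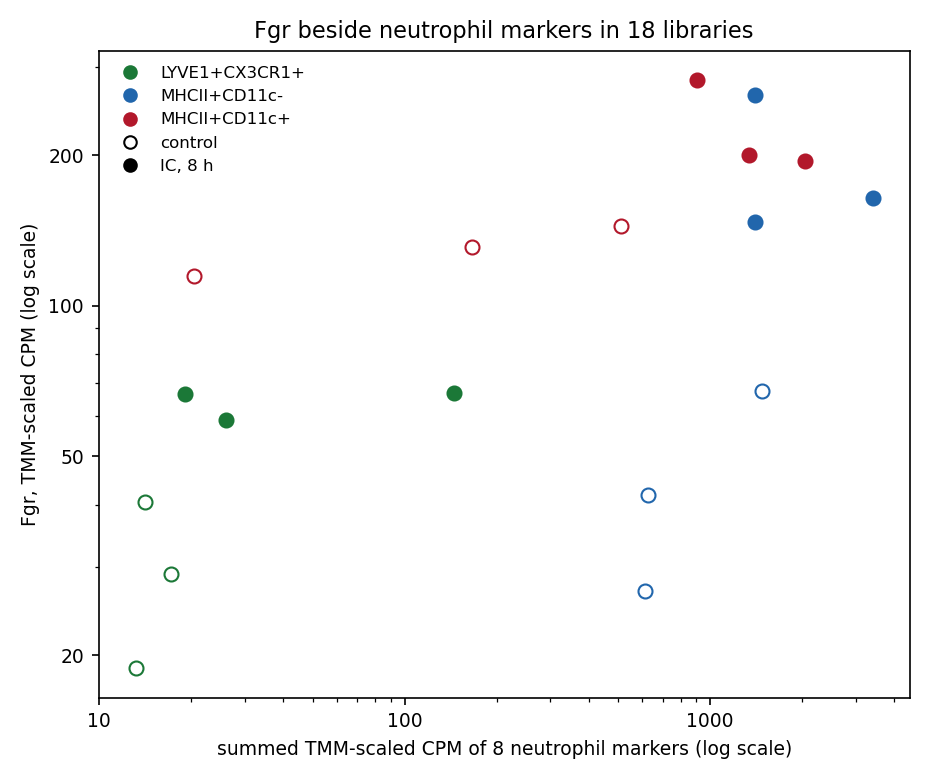
*Fgr* level (vertical axis) against the summed level of 8 neutrophil markers (horizontal axis) in the 18 libraries, both in TMM-scaled CPM on log scales, coloured by subset, with open and filled points for control and IC. Among the untreated libraries of each MHCII+ subset *Fgr* is higher where the sum is higher (26.9 to 67.4 CPM in MHCII+CD11c-, 114 to 144 CPM in MHCII+CD11c+). In MHCII+CD11c- controls it is 26.9, 41.9 and 67.4 CPM at sums of 611, 625 and 1479 CPM. It is 264, 147 and 164 CPM in the IC libraries of that subset with sums of 1399, 1401 and 3406 CPM. The part of neutrophils was not tested.

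*Syk* encodes the kinase that docks on phosphorylated ITAMs. Untreated LYVE1+CX3CR1+ libraries held 337, 288 and 354 CPM. Untreated MHCII+CD11c- libraries held 481, 491 and 456 CPM. Untreated MHCII+CD11c+ libraries held 522, 529 and 517 CPM. The 3 untreated subsets did not overlap, with LYVE1+CX3CR1+ lowest and MHCII+CD11c+ highest. *Syk* was 1.60-fold lower in LYVE1+CX3CR1+ than in MHCII+CD11c+ (log2 fold change -0.68, SE 0.17, adjusted p = 0.0037) and 1.46-fold lower than in MHCII+CD11c- (-0.54, SE 0.17, adjusted p = 0.0361). The second of these was the only difference of the 9 genes called between LYVE1+CX3CR1+ and MHCII+CD11c- without treatment, and it passed in 15 of 28 alternative settings. It was lost (adjusted p 0.0504 to 0.192) on leaving out any untreated library of these 2 subsets, replicate 2 or 3 of MHCII+CD11c+ control, replicate 1 or 2 of LYVE1+CX3CR1+ IC, or replicate 2 or 3 of MHCII+CD11c+ IC. After IC, *Syk* was at 329.9, 292 and 328 CPM in LYVE1+CX3CR1+, 392, 229.7 and 449 in MHCII+CD11c- and 478, 482 and 525 in MHCII+CD11c+. The difference from MHCII+CD11c+ was again called (-0.65, adjusted p = 0.00669), but not without replicate 2 of LYVE1+CX3CR1+ IC (0.0649) or replicate 3 of MHCII+CD11c+ IC (0.0533). All 3 MHCII+CD11c- IC libraries lay below the controls of that subset, the shallowest library furthest, and the fitted change of -0.39 did not pass (adjusted p = 0.302).

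*Btk* encodes the Tec-family kinase that acts with SYK on PLCγ2. It was the least counted of the 9 genes per kilobase beside *Fgr*, with 47.2 to 88.9 CPM over all libraries, and passed no test between subsets or treatments. Its estimates after IC were 0.26, 0.31 and 0.23 in LYVE1+CX3CR1+, MHCII+CD11c- and MHCII+CD11c+, with 95% intervals of -0.22 to 0.73, -0.23 to 0.85 and -0.26 to 0.71. All 3 intervals include 0 and reach past 0.5 on the log2 scale. In MHCII+CD11c- all 3 IC libraries (64.0 to 88.9 CPM) lay above the controls (57.0 to 62.3 CPM).

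*Plcg2* encodes the phospholipase that releases calcium downstream of SYK and BTK. Untreated LYVE1+CX3CR1+ libraries held 239, 196 and 218 CPM, against 329, 279 and 312 CPM in MHCII+CD11c+. These did not overlap, and the difference of -0.50 (SE 0.17) passed the test (adjusted p = 0.0391), as it did in 15 of 28 alternative settings. It was lost (adjusted p 0.0507 to 0.193) on leaving out any LYVE1+CX3CR1+ library, replicate 1 or 3 of MHCII+CD11c+ control, replicate 3 of MHCII+CD11c- control, or replicate 2 or 3 of MHCII+CD11c+ IC. After IC the libraries held 229.5, 237 and 254 CPM in LYVE1+CX3CR1+ and 350.2, 307 and 333 CPM in MHCII+CD11c+. The difference was then -0.45 and did not pass (adjusted p = 0.0683), except, among single libraries left out, without replicate 2 of MHCII+CD11c- IC (0.0198). MHCII+CD11c- libraries held 248, 188 and 251 CPM in controls and 282, 169 and 301 CPM after IC. In either treatment they overlapped with LYVE1+CX3CR1+ and lay below the MHCII+CD11c+ libraries.

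*Vav1* encodes a guanine nucleotide exchange factor of blood cells that acts in phagocytosis, and its order among the subsets was the reverse of that of *Plcg2*. In LYVE1+CX3CR1+ it was at 232, 194 and 192 CPM in controls and 260.0, 222 and 226 after IC. In MHCII+CD11c+ it was at 159, 146 and 151 CPM in controls and 179, 152 and 130.4 after IC. No LYVE1+CX3CR1+ library overlapped the MHCII+CD11c+ libraries of the same treatment. The difference was 0.44 in controls (SE 0.16, adjusted p = 0.0497), which passed in 13 of 28 alternative settings, and 0.63 after IC (SE 0.16, adjusted p = 0.00565), which passed in 28 of 28. The difference in controls was lost (adjusted p 0.0531 to 0.226) on leaving out any untreated library of these 2 subsets, any LYVE1+CX3CR1+ IC library, replicate 2 or 3 of MHCII+CD11c- control, or replicate 2 of MHCII+CD11c+ IC. In MHCII+CD11c- *Vav1* was at 196, 203 and 193 CPM in controls and 173, 143 and 190.3 CPM after IC. Every IC library of this subset was below the controls, and the change of -0.20 did not pass (adjusted p = 0.638). Of the relatives, *Vav3* was lower in LYVE1+CX3CR1+ than in MHCII+CD11c+ (-1.32, adjusted p = 0.000919), opposite to *Vav1*, and *Vav2* and *Plcg1* were not called in any comparison of IC with control.

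*Tyrobp* encodes DAP12, the ITAM adaptor of TREM2 and related receptors. It had the narrowest span of the 9 genes, with 233 to 302 CPM over all 18 libraries, and passed no test. Its largest IC estimate, in MHCII+CD11c-, was 0.15 (95% interval -0.20 to 0.50). There the IC libraries (298, 271 and 254 CPM) met the controls (239.5, 254 and 246 CPM) without overlap. *Fcer1g*, which encodes FcRγ, the corresponding adaptor of activating Fc receptors, stood above its controls in every IC library of each subset, with estimates of 0.40, 0.35 and 0.46. None of the 3 passed (adjusted p = 0.315, 0.279 and 0.184).

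*Inpp5d* encodes SHIP-1, the lipid phosphatase recruited by FcγRIIB. It ran highest in LYVE1+CX3CR1+, at 517, 459 and 585 CPM in controls and 621, 567 and 612 after IC. MHCII+CD11c- libraries held 388, 418 and 426 CPM in controls and 539, 256 and 469 after IC. MHCII+CD11c+ libraries held 313, 312 and 285 CPM in controls and 395, 386 and 319 after IC. The subsets did not overlap without treatment, in the order LYVE1+CX3CR1+, MHCII+CD11c-, MHCII+CD11c+. LYVE1+CX3CR1+ exceeded MHCII+CD11c+ 1.72-fold in controls (log2 fold change 0.78, SE 0.18, adjusted p = 0.00202) and 1.64-fold after IC (0.71, SE 0.18, adjusted p = 0.00511). The middle subset could not be separated from either neighbour by the test, with 0.34 between LYVE1+CX3CR1+ and MHCII+CD11c- (adjusted p = 0.272) and -0.44 between MHCII+CD11c+ and MHCII+CD11c- (adjusted p = 0.217). Without replicate 2 of MHCII+CD11c- IC the latter passed (0.0441), and without replicate 1 of that group the difference of LYVE1+CX3CR1+ from MHCII+CD11c- after IC passed (0.70, adjusted p = 0.0314, against 0.49 and 0.0968 with all libraries). With IC, the MHCII+CD11c+ libraries all lay above their controls, by an estimated 0.27 that did not pass (adjusted p = 0.722).

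*Ptpn6* encodes SHP-1, the tyrosine phosphatase of ITIM receptors. It was at 181 to 411 CPM over all libraries and passed no test. Its largest estimate after IC was in MHCII+CD11c+, where 229, 231 and 181 CPM in controls stood below 270.0, 299 and 300.3 CPM after IC. That difference was 0.45 (95% interval 0.06 to 0.83, adjusted p = 0.355). The relatives *Ptpn11* and *Inppl1*, which encode SHP-2 and SHIP-2, were not called after IC in any subset, and *Ptpn11* was lower in LYVE1+CX3CR1+ than in MHCII+CD11c+ (-1.17 in controls, adjusted p = 0.000266).

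The opposite order of *Syk* and *Fgr* on one side and *Inpp5d* on the other was summarised as the summed level of *Lyn*, *Fgr*, *Syk* and *Btk* over that of *Inpp5d* and *Ptpn6* in each library. The ratio was 1.32 ± 0.0655 in untreated LYVE1+CX3CR1+, 1.496 ± 0.0444 in MHCII+CD11c- and 2.21 ± 0.217 in MHCII+CD11c+. After IC it was 1.01 ± 0.0361, 1.43 ± 0.0690 and 1.83 ± 0.141 in the same order. The 3 subsets did not overlap within either treatment. Without *Syk* the untreated order of the first pair turned, with 0.875 (0.801 to 0.935) in LYVE1+CX3CR1+ and 0.793 (0.730 to 0.824) in MHCII+CD11c-, which overlapped, and the mean in MHCII+CD11c- was then higher after IC (0.955). With all 4 kinases the IC libraries lay below the controls in LYVE1+CX3CR1+ (0.987 to 1.06 against 1.25 to 1.38) and in MHCII+CD11c+ (1.71 to 1.99 against 2.05 to 2.46), and the treatments overlapped in MHCII+CD11c-. Over the same libraries, the mean ratio of *Fgr* to *Lyn* went from 0.0519 in controls to 0.150 after IC in LYVE1+CX3CR1+, 0.104 to 0.435 in MHCII+CD11c- and 0.305 to 0.558 in MHCII+CD11c+. *Inpp5d* stood at 2.41 times *Ptpn6* in untreated LYVE1+CX3CR1+, 1.58 times in MHCII+CD11c- and 1.43 times in MHCII+CD11c+. These ratios are descriptions with no test, and a ratio of RNA levels weights each gene by its transcript length and level.

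**Figure D3:**
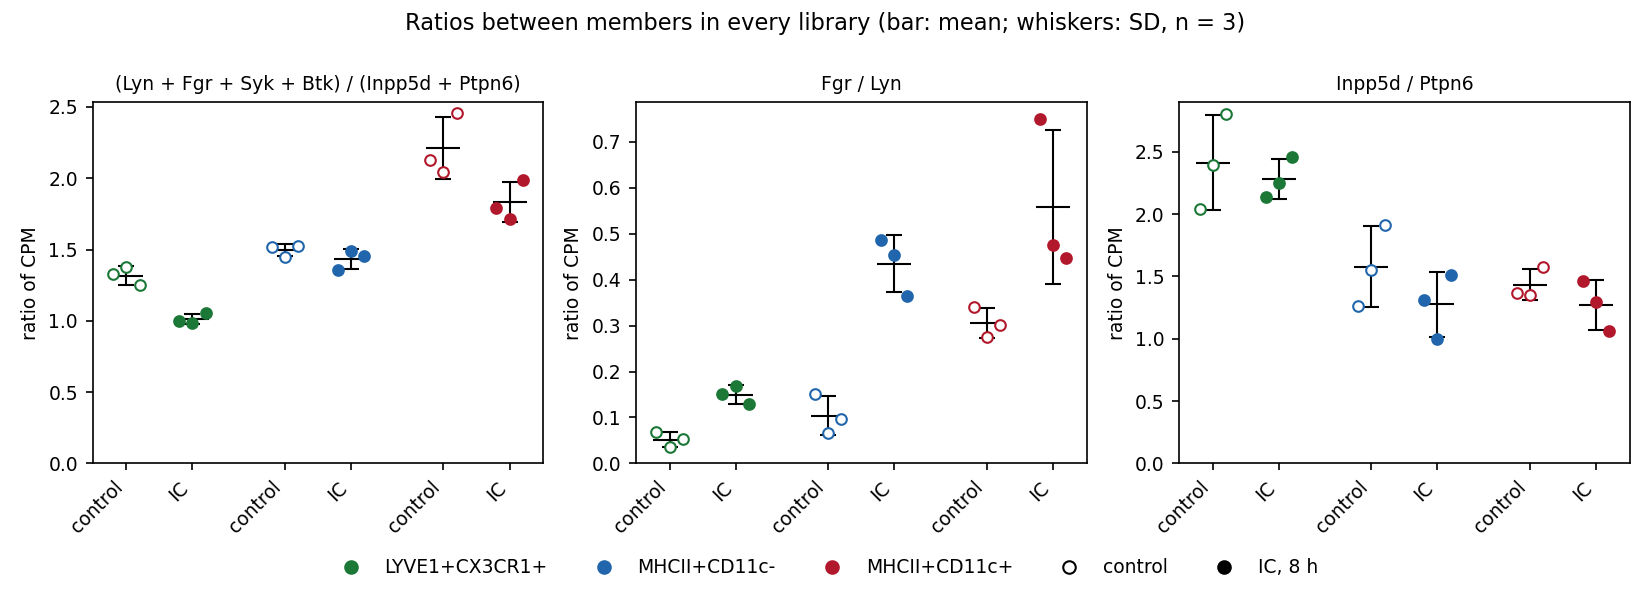
Ratios of levels in each of the 18 libraries by subset and treatment: kinases (*Lyn*, *Fgr*, *Syk*, *Btk*) over phosphatases (*Inpp5d*, *Ptpn6*), *Fgr* over *Lyn*, and *Inpp5d* over *Ptpn6*, all unitless; points are libraries and bars are means with SD (n = 3). The kinase ratio is highest in MHCII+CD11c+ libraries and the *Fgr* to *Lyn* ratio is higher after IC in each subset.

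Counted over comparisons, the 9 genes differed mostly between LYVE1+CX3CR1+ and MHCII+CD11c+ macrophages. In untreated mice 5 of 9 were called (*Fgr*, *Syk* and *Plcg2* lower in LYVE1+CX3CR1+, *Vav1* and *Inpp5d* higher), where 21.8% of all genes tested were called. After IC 4 of 9 were called (*Fgr* and *Syk* lower, *Vav1* and *Inpp5d* higher), against 19.7% of all genes. Between LYVE1+CX3CR1+ and MHCII+CD11c- 1 of 9 was called without treatment (*Syk*, against 11.4% of all genes) and 1 of 9 after IC (*Fgr*, against 9.77%), which is close to the background. Between MHCII+CD11c+ and MHCII+CD11c- 1 of 9 was called without treatment (*Fgr*, against 3.49%) and 0 of 9 after IC (against 2.84%), where *Syk* came nearest with 0.44 (unadjusted p = 0.0179 by edgeR, the only one of the 9 under 0.05, and none was called by DESeq2). The median log2 fold change of the 9 genes lay between -0.10 and -0.02 in these 6 comparisons and that of all genes between -0.04 and 0.00. *Lyn*, *Btk*, *Tyrobp* and *Ptpn6* were called in none of these 6 comparisons with edgeR. The comparisons of LYVE1+CX3CR1+ with both MHCII+ subsets share its libraries. Whether subsets of a treatment share mice is not stated, and these tests were unpaired. With replicate numbers blocked within treatment, the *Vav1* call in controls was lost.

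**Figure D4:**
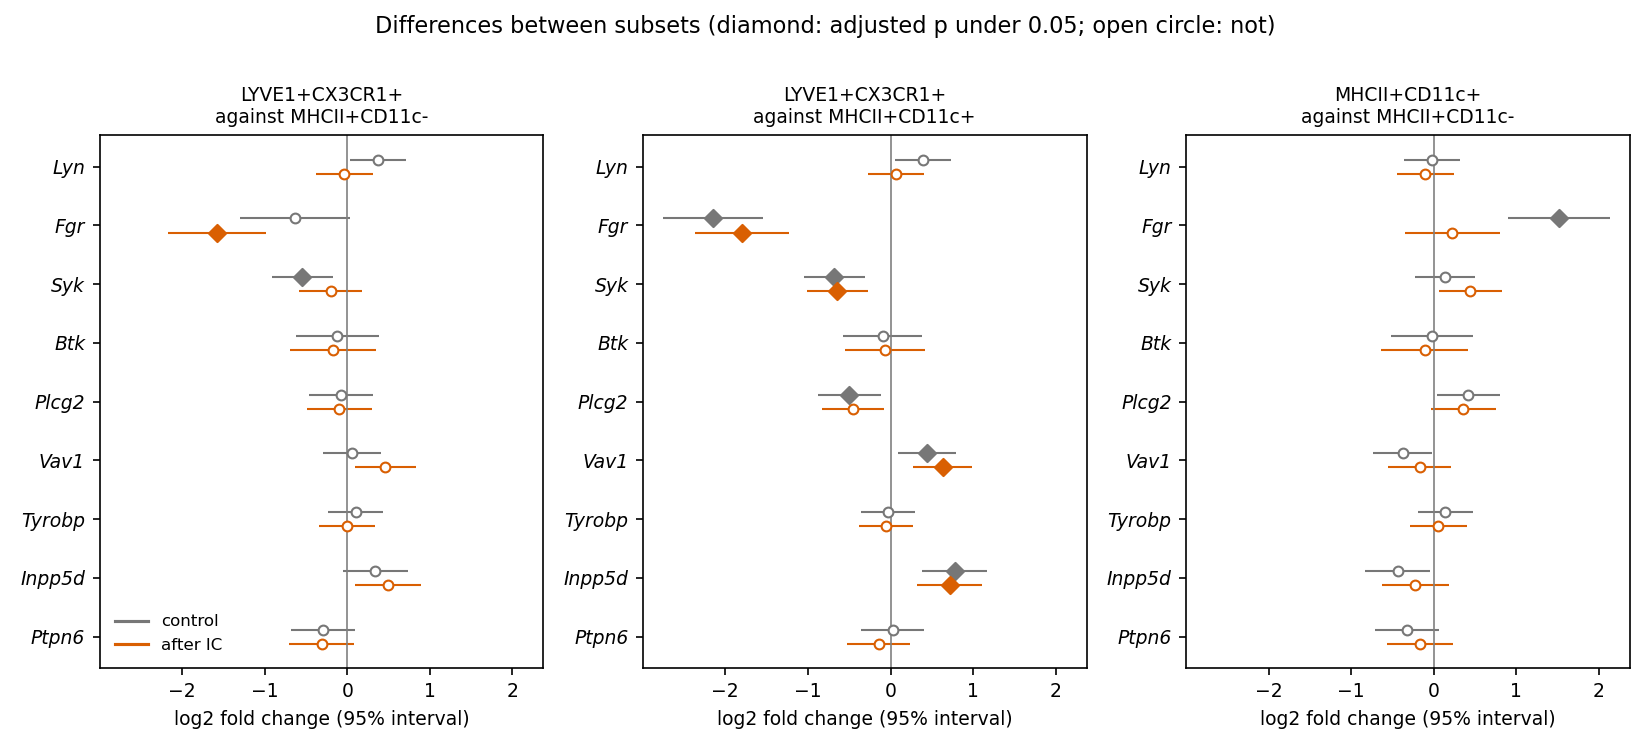
Log2 fold change between subsets for each of the 9 genes, with 95% intervals, in control mice and after IC; filled points passed the adjusted p threshold of 0.05. *Fgr* and *Syk* lie on the side of the MHCII+CD11c+ subset and *Inpp5d* and *Vav1* on the side of LYVE1+CX3CR1+ in both treatments.

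With IC, 1 of 27 tests of the 9 genes passed, that of *Fgr* in MHCII+CD11c-. There 1 of 9 genes was called against 1.06% of all genes tested, in LYVE1+CX3CR1+ 0 of 9 against 0.464%, and in MHCII+CD11c+ 0 of 9 against 0.673%. At an unadjusted p under 0.05 in edgeR there were 2 genes in LYVE1+CX3CR1+ (*Fgr*, *Lyn*), 2 in MHCII+CD11c- (*Fgr*, *Syk*) and 2 in MHCII+CD11c+ (*Fgr*, *Ptpn6*), beside 919, 1544 and 1000 of all 10550 genes. DESeq2 called 2 in LYVE1+CX3CR1+ (*Fgr*, *Lyn*) and 0 in MHCII+CD11c+. The median log2 fold change of the 9 genes was 0.20, 0.15 and 0.10 in LYVE1+CX3CR1+, MHCII+CD11c- and MHCII+CD11c+, beside -0.02, -0.01 and -0.01 for all genes. The estimates of the other 8 genes lay between -0.39 and 0.45, and their 95% intervals ran no further than -0.77 and 0.85. Libraries of the treatments did not overlap for 2 of 9 genes in LYVE1+CX3CR1+ (*Fgr* higher, *Lyn* lower), against 19.1% of all genes. They did not for 5 of 9 in MHCII+CD11c- (*Fgr*, *Btk* and *Tyrobp* higher, *Syk* and *Vav1* lower), against 14.2%. For all of these 5 but *Fgr* the gap was narrow. The nearest IC and control libraries held 254.4 and 254.3 CPM (*Tyrobp*), 64.0 and 62.3 (*Btk*), 190.3 and 193.1 (*Vav1*), and 448.6 and 455.6 (*Syk*). In MHCII+CD11c+ libraries did not overlap for 3 of 9 (*Fgr*, *Inpp5d* and *Ptpn6* higher), against 18.5%. The IC response was not called different between subsets for any of the 9 genes by edgeR or DESeq2 (at an unadjusted p under 0.05 in edgeR, *Fgr* in 2 of the 3 comparisons), and for all genes the share called was 0%, 0.00948% and 0.00948% in the 3 comparisons of responses (688, 474 and 642 genes at an unadjusted p under 0.05). The p-values measure the spread between these libraries.

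**Figure D5:**
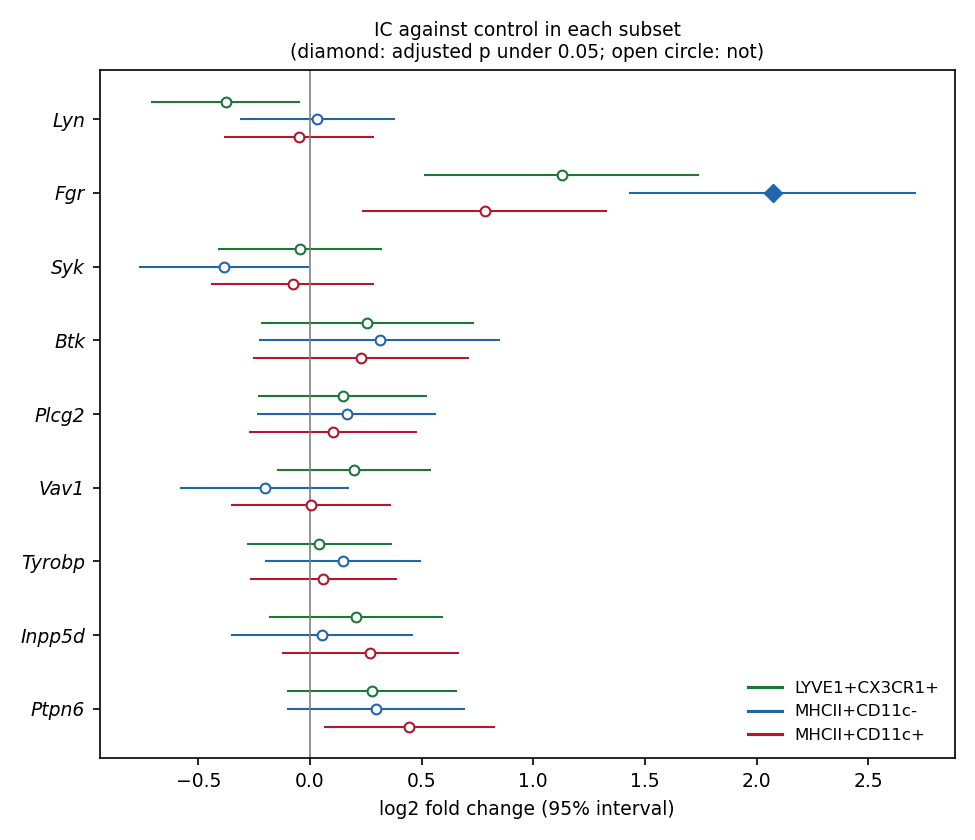
Log2 fold change of IC against control with 95% intervals for each of the 9 genes in the 3 subsets; the filled point passed the adjusted p threshold of 0.05. *Fgr* in MHCII+CD11c- (2.07) is the filled point, and the 8 genes other than *Fgr* lie between -0.39 and 0.45 in each subset.

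The wider pathway was read from a list of 57 genes, of which 51 were tested. Between LYVE1+CX3CR1+ and MHCII+CD11c+ without treatment 9 were higher and 14 lower in LYVE1+CX3CR1+, or 45.1% of the 51, where 21.8% of all genes were called. Next to *Lyn*, the adaptor gene *Pag1*, which anchors the kinase that restrains Src-family members, was higher (1.88), and *Ptprc*, which encodes the activating phosphatase CD45, was lower (-1.31). Downstream of *Syk*, the phosphoinositide 3-kinase genes *Pik3cb* (-2.43) and *Pik3cd* (-1.95) were lower and the regulatory subunit gene *Pik3r5* was higher (1.34). Downstream of *Plcg2*, the calcium channel gene *Itpr1* (-3.03) and the kinase gene *Prkcd* (-0.95) were lower and *Prkcb* was higher (0.90). Beside *Inpp5d*, whose product binds them, the adaptor genes *Dok3* (1.58) and *Dok2* (-0.97) went in opposite directions. Beside *Vav1*, the GTPase gene *Rac2* was lower (-1.21). Beside *Ptpn6*, 3 of 4 other tyrosine phosphatases were lower, *Ptpn22* by -1.69, *Ptpn11* as given above and *Ptpn2* by -0.89. Without replicate 2 of MHCII+CD11c+ control *Prkcb* was not called (adjusted p = 0.0551), and *Ptpn2* was not called without replicate 1 or 2 of either group (up to 0.169). After IC the count was 7 higher and 11 lower (35.3%, against 19.7% of all genes). Against MHCII+CD11c- it was 3 higher and 7 lower without treatment (19.6%, against 11.4%) and 1 higher and 7 lower after IC (15.7%, against 9.77%). Between MHCII+CD11c+ and MHCII+CD11c- 2 were higher in MHCII+CD11c+ in either treatment (3.92%, against 3.49% and 2.84%).

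Some receptor genes upstream of the 9 genes were called after IC. *Fcgr1*, the gene of the high-affinity IgG receptor, was higher after IC in LYVE1+CX3CR1+ (0.99, adjusted p = 0.0213), MHCII+CD11c- (1.18, adjusted p = 0.00685) and MHCII+CD11c+ (1.25, adjusted p = 0.00336). *Fcgr2b*, the gene of the inhibitory receptor that recruits SHIP-1, was called in LYVE1+CX3CR1+ (1.05, adjusted p = 0.00102), with estimates of 0.35 in MHCII+CD11c- (adjusted p = 0.312) and 0.50 in MHCII+CD11c+ (adjusted p = 0.189). *Inpp5d* in the same LYVE1+CX3CR1+ libraries had an estimate of 0.21 (95% interval -0.18 to 0.59). *Fcgr3* and *Fcgr4* were not called. The *Fcgr1* call in LYVE1+CX3CR1+ was lost without any of its 3 controls or replicate 1 or 2 of its IC libraries (adjusted p 0.0872 to 0.174), while the *Fcgr2b* call was kept under every alternative run. Of 12 activating receptors tested, 1 was higher in LYVE1+CX3CR1+, 2 in MHCII+CD11c- and 4 in MHCII+CD11c+, the others being *Clec4e* (1.42 and 2.00), *Trem1* (2.48) and *Clec5a* (1.03), and none was lower, where 0.464%, 1.06% and 0.673% of all genes were called. In the same comparisons the monocyte marker *Plac8* in both MHCII+ subsets and the neutrophil markers *S100a8*, *Csf3r* and *Mmp8* in MHCII+CD11c+ were called higher, and their part in these receptor values was not tested. The summed monocyte markers overlapped between treatments in both MHCII+ subsets. Leaving out single libraries lost the call of *Clec4e* in MHCII+CD11c- (any control or replicate 1 of IC of that subset, replicate 2 of LYVE1+CX3CR1+ control, replicate 2 or 3 of MHCII+CD11c+ IC; adjusted p 0.0501 to 0.140), as did a fit of only the libraries compared (adjusted p = 0.267). The *Trem1* call was lost without replicate 2 or 3 of MHCII+CD11c+ control or replicate 3 of MHCII+CD11c+ IC (adjusted p up to 0.136). The *Clec5a* call was lost without replicate 1 or 2 of MHCII+CD11c+ control or replicate 3 of MHCII+CD11c+ IC (adjusted p up to 0.171). Of 14 inhibitory receptors tested, *Fcgr2b* in LYVE1+CX3CR1+ was the only one called in the 3 subsets. The IC response was called different between subsets for 0 of the 14 inhibitory and 0 of the 12 activating receptors. Untreated *Fcgr2b* was lowest in LYVE1+CX3CR1+ (228 to 290 CPM), against 361 to 459 CPM in MHCII+CD11c- and 399 to 463 CPM in MHCII+CD11c+. After IC it was at 469 to 578, 407 to 569 and 569 to 696 CPM in the same order.

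Receptor genes also separated the untreated subsets. In LYVE1+CX3CR1+ against MHCII+CD11c+, 2 activating receptors were higher and 6 lower (66.7% of those tested), and 2 inhibitory receptors were higher and 6 lower (57.1%), beside 21.8% of all genes. *Trem2* (2.66) and *Clec5a* (2.53), both partners of DAP12, were the higher pair, while *Tyrobp* itself differed by -0.04 (adjusted p = 0.918). *Fcgr4*, *Pilrb1* and *Sirpb1a* had at most 3 counts in each untreated LYVE1+CX3CR1+ library, against means of 8.85, 21.6 and 7.36 CPM in untreated MHCII+CD11c+. Of the inhibitory receptors, *Lair1* (2.18) and *Cd33* (2.03) were higher and *Pilra* (-3.65) and *Clec4a2* (-3.37) lower. *Cd22*, which B cells also express, was lower too (-3.32), in the libraries with the B cell marker sums given above. Against MHCII+CD11c-, 2 activating receptors were higher and 7 lower in LYVE1+CX3CR1+ (75%), and 2 inhibitory receptors were higher and 7 lower (64.3%), beside 11.4% of all genes. Between MHCII+CD11c+ and MHCII+CD11c-, 0 and 2 activating receptors (16.7%) and 1 and 2 inhibitory receptors (21.4%) were higher and lower, beside 3.49% of all genes. After IC the corresponding counts of activating receptors were 2 and 5 (58.3%), 1 and 7 (66.7%), and 0 and 2 (16.7%). Those of inhibitory receptors were 2 and 6 (57.1%), 1 and 5 (42.9%), and 0 and 1 (7.14%). Of all genes, 19.7%, 9.77% and 2.84% were called in the same order.

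The genes whose log2 CPM followed that of each called member most closely were taken from 4919 genes over all 18 libraries, by Pearson's r, as a description, since the points share subsets, treatments and depth. For *Fgr* they were *Tkt* (0.91), *Hyou1* (0.89) and *Eif5a* (0.89). For *Syk* they were *Rin3* (0.98), *Nfil3* (0.95) and *Akna* (0.94). *Plcg2* went with *Ezr* (0.93), *Csf2ra* (0.88) and *Flna* (0.87). *Vav1* went with *Glmp* (0.92), *Maf* (0.89) and *Plxnb2* (0.88), and *Inpp5d* with *Plxnb2* (0.96), *Rab10* (0.95) and *Ctsb* (0.94). *Plxnb2* thus stood in both of the last lists, and among the 9 genes themselves *Vav1* and *Inpp5d* had the highest r (0.84), followed by *Syk* and *Plcg2* (0.72) and *Fgr* and *Plcg2* (0.70). *Fgr* and *Vav1* had the lowest (-0.59).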

How the data were processed

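RNA of sorted macrophages had been extracted with RNeasy Plus Micro kits, and libraries had been made with the SMARTer Stranded Total RNA-seq Pico kit and sequenced in paired ends on an Illumina instrument. The authors removed the first 3 bases of read 1, trimmed with Trim Galore, checked quality with FastQC, aligned to mm10 with HISAT2 and counted reads per gene with featureCounts. The deposited values are whole-number counts per gene symbol, not normalized, 1 file per library. Versions, the annotation, the strand setting and the treatment of duplicate reads are not given in the sources used here. Exons of *Lyn* and *Ptpn6* overlap those of an antisense gene (*Gm26857*, *Gm20531*) in GENCODE M21, so their counts are uncertain to that extent. Subset names were read from the sample labels and the study's methods.

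CPM scaled by TMM factors was derived from these counts in R 4.3.3 (edgeR 4.0.16). The function filterByExpr (minimum count 10, minimum total 15) kept 10550 genes. Comparisons of subsets, of IC with control in each subset, and of IC responses between subsets (12 in all) used edgeR's quasi-likelihood test over 18 libraries and 6 groups, without covariates, and p-values were adjusted by Benjamini and Hochberg over all 10550 genes of a comparison, with calls at 0.05. An SE was derived from each log2 fold change and its F statistic. Exon lengths for CPM per kb came from GENCODE M21 (GRCm38) and promoters from RefSeq (GRCm38.p6), by symbol. The test was checked on simulated data for IC against control in LYVE1+CX3CR1+: of 100 genes changed 2-fold 31 were recovered, and of 100 changed 4-fold 98, with 7 false calls. DESeq2 1.42.0 and sva 3.50.0 were used in alternatives. No 2 replicates agreed within sampling noise (smallest chi-square per gene 3.42). Counting error only is covered by the precision given for counts.

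The 9 genes and the lists of pathway genes, receptors and markers were chosen with earlier results of these data known. The text names all 9 genes, their nearest relatives, up to 3 called genes of each role with the largest change, and the 3 genes most correlated with each called member. Counts of the pathway list for IC against control are not reported here.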

Additional observations from a re-analysis of the deposited data

How the results depend on the processing

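Of 108 values (9 genes in 12 comparisons), 13 were called and 8 of these passed in every one of 27 or 28 alternative settings. None of the 13 changed sign. Of the 95 values that were not called, 9 passed in some setting and 42 changed sign in some setting. *Fgr* after IC in MHCII+CD11c- passed in 27 of 27 settings, at 1.78 to 2.45 on the log2 scale with an adjusted p of at most 0.0311, and after IC in LYVE1+CX3CR1+ in 8 of 27, at 0.90 to 1.41.

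The number of the 9 genes called between LYVE1+CX3CR1+ and MHCII+CD11c- in controls was 1, and 2 with DESeq2's Wald test or without the 2 MHCII+CD11c- IC libraries of lowest total, and 0 with no filter on low counts. Between LYVE1+CX3CR1+ and MHCII+CD11c+ in controls it was 5, and 3 with no filter. Between MHCII+CD11c+ and MHCII+CD11c- in controls it was 1, and 2 without the 2 lowest libraries. Between LYVE1+CX3CR1+ and MHCII+CD11c- after IC it was 1, and 2 with no filter, 3 when each library had to hold 10 counts and 0 with 1 surrogate variable, where *Fgr* had an adjusted p of 0.0569. With IC in LYVE1+CX3CR1+ it was 0, and 2 with DESeq2 and 1 (*Fgr*) with no filter, at least 10 counts, only the libraries compared, the replicate block over all libraries, or without the 2 lowest libraries. With IC in MHCII+CD11c+ it was 0, and 1 (*Fgr*) with no filter or only the libraries compared. The cause of these changes was not tested.

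Leaving out 1 library at a time gave 0 to 2 and 3 to 6 called genes for LYVE1+CX3CR1+ against MHCII+CD11c- and MHCII+CD11c+ in controls, 1 to 2 for MHCII+CD11c+ against MHCII+CD11c- in controls, and 1 to 2, 3 to 5 and 0 to 0 for the same comparisons after IC. With IC the ranges were 0 to 1 in LYVE1+CX3CR1+, 1 to 1 in MHCII+CD11c- and 0 to 0 in MHCII+CD11c+, and 0 to 0 for the responses between subsets. Leaving out Rn45s was chosen after seeing the data and kept the count of called genes within 1.5 times. For all genes, the number called with IC was 49 in LYVE1+CX3CR1+ (49 to 272 over settings), 112 in MHCII+CD11c- (19 to 337) and 71 in MHCII+CD11c+ (62 to 250).

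The kinase to phosphatase ratio depended on which kinases were summed. Without *Lyn* it was 0.556, 0.516, 0.857, 0.840, 1.38 and 1.20 (LYVE1+CX3CR1+, MHCII+CD11c- and MHCII+CD11c+, each control then IC). Without *Syk* it was 0.875, 0.648, 0.793, 0.955, 1.19 and 1.07, which turned the order of the first pair of untreated subsets. Without *Fgr* it was 1.28, 0.940, 1.43, 1.18, 1.96 and 1.49, and without *Btk* 1.24, 0.940, 1.41, 1.33, 2.10 and 1.73.

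Each group's mean log2 CPM was subtracted, and the deviations of libraries were correlated over 4919 genes. For the same replicate number in different subsets the values were 0.009 to 0.231 in controls and 0.015 to 0.164 after IC. Of 9 pairs each, 4 and 3 were over 0.1. For the same number in different treatments they were -0.008 to 0.052. Control and IC libraries came from different mice, so these values cannot show whether subsets of a treatment share mice. Such sharing is not stated in the labels or the study's methods. The numbers were taken as names only, and the main tests between subsets were unpaired. The medians within a treatment were 0.087 and 0.074 for equal numbers in controls and after IC, against -0.070 and -0.042 for different numbers. This is a hint from the data and not from the design, and not every library correlated best with its own number. Because deviations cancel out within a group, positive values for equal numbers bring negative values for different numbers, so these medians are not independent. With the replicate block, *Fgr* after IC in LYVE1+CX3CR1+ and *Plcg2* between LYVE1+CX3CR1+ and MHCII+CD11c+ after IC gained a call, and within treatment *Vav1* between those subsets in controls lost one. Depth limits *Btk* and *Fgr* most, with 17 and 22 counts at the lowest, and 3 pools a group limit all intervals.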

Other observations

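Marker lists of cells that the sort could have admitted, other than those given with *Fgr*, had summed levels of 0 to 25.7 CPM for T and NK cells, 2.11 to 163 CPM for dendritic cells, 7.84 to 645 CPM for fibroblasts, 1.05 to 67.4 CPM for endothelial cells and 2.64 to 121 CPM for muscle over the 18 libraries. The highest fibroblast sum was in an untreated LYVE1+CX3CR1+ library. The highest dendritic cell and muscle sums were in untreated MHCII+CD11c+ libraries.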
